A study of Mus musculus with 19 samples.

Results

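The genes described here are 10 transcription factors of the ATF, CREB and C/EBP families, chosen by name (Atf1, Atf2, Atf3, Atf7, Cebpa, Cebpb, Cebpd, Cebpg, Creb1 and Crem). Of these, 9 are among the 12629 genes of the deposited expression table and so passed the low-count filter of the authors, and Cebpa was not analysed here. The values come from RNA-seq of GFP-positive cells sorted by FACS (fluorescence-activated cell sorting) from dorsal root ganglia (DRGs), which hold the cell bodies of sensory neurons. All groups had AAV5 injected into the left cervical DRGs of adult animals, and the DRGs were taken 8 weeks later. The 5 GFP-naive and 4 GFP-crush libraries (genotype wild-type in the labels) are from DRGs given a GFP virus with a CMV promoter. The 6 α9k1-naive and 4 α9k1-crush libraries (a9k1 overexpression) are from DRGs given α9 integrin under a CAG promoter together with kindlin-1 fused to GFP under a CMV promoter, and cells were sorted on the GFP of kindlin-1, so that a sorted cell need not carry α9 integrin. Neither promoter is restricted to neurons. In both crush groups the dorsal roots were crushed when the virus was injected, and the naive groups had no crush. The labels name C57BL/6 mice and the methods of the study name male Lewis rats, and reads of all libraries were aligned to the mouse genome. Which species the cells came from was not tested, and the sequences, positions and exon overlaps below are of the mouse genome. The labels do not say which animal each library came from, so p-values measure the spread between libraries.

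ATF, CREB and C/EBP proteins are bZIP factors, in which a leucine zipper joins a pair of proteins and a basic region touches DNA. CREB1, CREM and ATF1 bind the cAMP response element (CRE), and CREB1 and ATF1 are switched on mainly by phosphorylation, whereas ATF3, CEBPB and CEBPD are kept low and made in response to injury, stress or cytokines. Atf3 is widely used as a marker of axotomised sensory neurons, and it belongs to the regeneration-associated genes that switch on after peripheral nerve injury.

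Bases before the start sites of Atf3 and Cebpb, the factors with the largest differences in the data, are shown with the motif matches they hold. Each stretch is the 120 bases before the RefSeq start on GRCm38.p6, written 5′ to 3′ on the strand of the gene, with matches in capitals. The Atf3 stretch (chr1:191183334-191183453, minus strand) lies in the Atf3 gene, and its last 7 bases are in the first exon of another Atf3 transcript. The Cebpb stretch (chr2:167688795-167688914, plus strand) lies in an intron of Tmem189, a gene on the opposite strand.
Atf3: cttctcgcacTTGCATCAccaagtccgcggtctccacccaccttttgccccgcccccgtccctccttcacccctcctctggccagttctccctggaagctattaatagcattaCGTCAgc
Cebpb: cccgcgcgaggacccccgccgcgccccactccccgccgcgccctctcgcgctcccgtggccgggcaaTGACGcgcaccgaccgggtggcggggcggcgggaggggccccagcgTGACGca

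The capitals in the Atf3 stretch are a composite C/EBP-ATF site (TGATGNAA, positions -110 to -103 on the minus strand of the gene) and a shortened CRE site (TGACG, -7 to -3, minus strand), where -1 is the base before the start. Those in the Cebpb stretch are the same short site at -53 to -49 and at -7 to -3, and a further one lies at -180 to -176. Windows of 300 bases around the start were searched on both strands for 8 of the 10 factors (all but Cebpd and Crem). The composite site was in 1 of the 8 windows, and in 3.97% of all 32851 windows of the genome. The short site was in 3 of the 8 (Atf1, Atf3 and Cebpb) and in 20.8% of all windows. No window of the 8 held the full CRE (TGACGTCA, which contains the short site), the AP-1 site (TGANTCA) or the C/EBP palindrome (TTGCGCAA), which were in 1.79%, 7.81% and 0.183% of all windows. A match is a string of letters and was not tested as a binding site.

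Values are log2 expression after the authors normalized for gene length and depth, so that a level can be set against the levels of other genes. Differences (log2FC, first group minus second) are from a single limma fit of all 19 libraries with 3 covariates of library quality, and a gene was called at an adjusted p under 0.1. In GFP-naive, Atf3 averaged 7.08, higher than 90.2% of genes, and Cebpd (6.50) and Cebpb (6.34) were higher than 84.7% and 83.1%. Crem averaged 5.17, Atf2 4.80 and Cebpg 4.70, near the middle of the table. Atf7 (3.93), Creb1 (3.78) and Atf1 (3.51) were lower, with 38.4%, 34.7% and 28.2% of genes below them.

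Depth was between 36.4 and 87.6 M read pairs per library, and the aligned part of the reads between 47.5% and 54.1%. Of the aligned bases, 3.87% to 4.05% per library did not match the mouse genome. All 11 neuronal markers examined, Rbfox3, Snap25 and Uchl1 among them, had values, and so did all 12 markers of satellite glia and Schwann cells, 11 of 15 of macrophages, 7 of 11 of endothelial cells and fibroblasts, and 0 of 6 of neutrophils. Cx3cr1, Itgam, Cd163 and Mrc1 are the macrophage markers without a value. Fermt1, the gene of kindlin-1, was between 0.42 and 0.80 in GFP libraries and between 5.18 and 7.73 in α9k1 libraries, as the labels say.

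**Figure D1:**
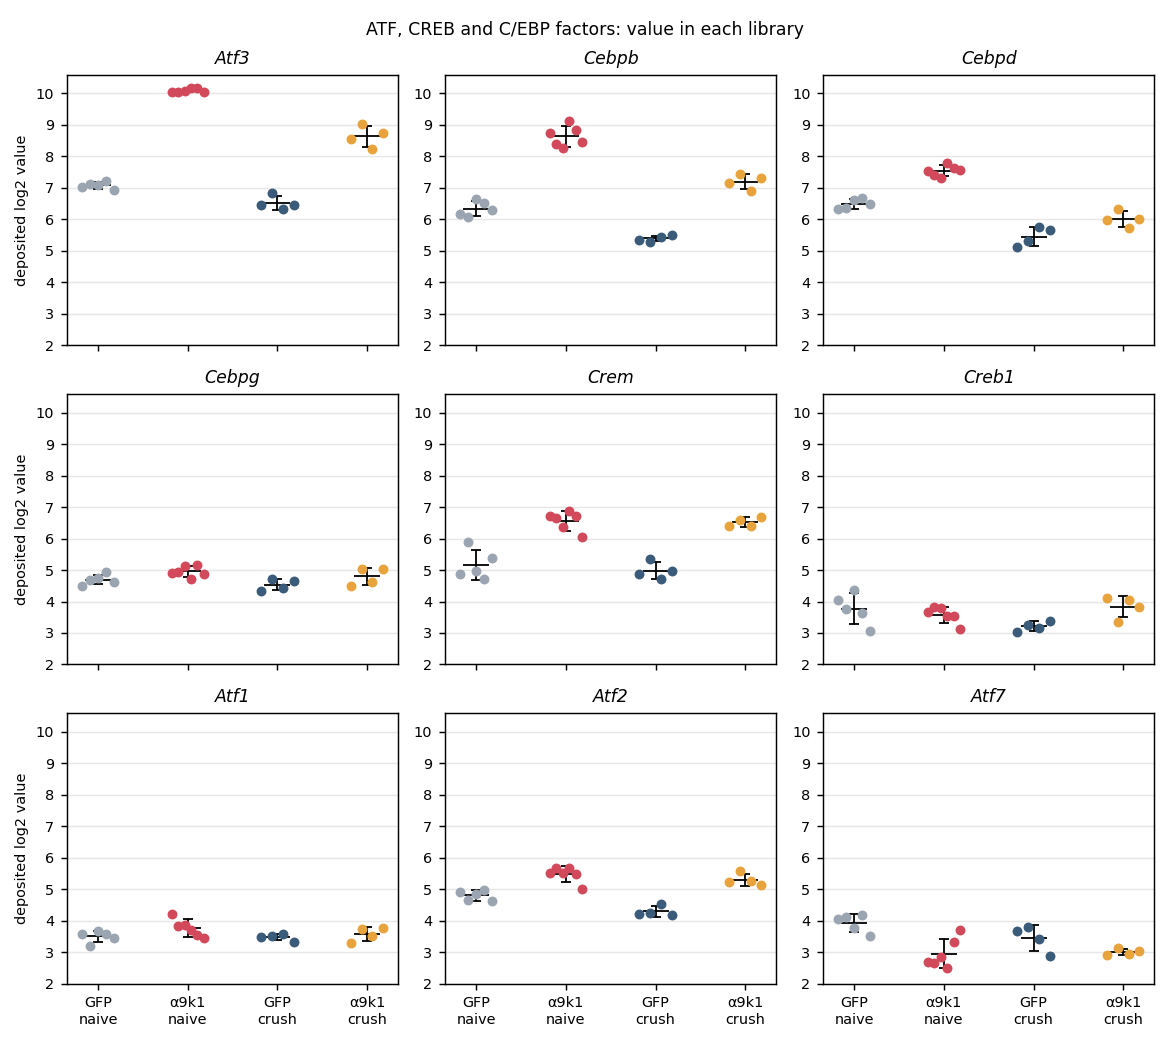
Deposited log2 value (vertical axis) of 9 factors in each library (points) of 4 groups (horizontal axis), with the group mean and SD in black. Atf3 lies between 10.03 and 10.17 in the 6 α9k1-naive libraries and between 6.94 and 7.23 in the 5 GFP-naive libraries, while Creb1 and Atf1 stay between 3.02 and 4.36 in all 19 libraries.

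To ask what integrin and kindlin expression does without injury, α9k1-naive was compared with GFP-naive. Of the 9 factors, 5 rose (Atf3, Cebpb, Cebpd, Crem and Atf2), 1 fell (Atf7) and 3 did not pass the test (Atf1, Cebpg and Creb1). Of all genes, 11.4% were called higher and 17.6% lower (1445 and 2224 genes, and 1654 and 1725 with each library centred on its median). Deposited values did not overlap between the groups for 5 of 9 factors, and for 21.7% of all genes.

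Atf3 had the largest difference. Its log2 values were 7.02, 7.11, 7.10, 7.23 and 6.94 in GFP-naive and 10.05, 10.06, 10.07, 10.16, 10.17 and 10.03 in α9k1-naive. The α9k1-naive libraries were tightly grouped (10.09 ± 0.061, SD, n = 6) and all lay far above GFP-naive. The log2FC was 2.99 ± 0.17 (SE; adjusted p = 1.2e-08, limma), a 7.97-fold difference, and α9k1-naive Atf3 stood above 99.4% of genes.

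The C/EBP factors differed in size of response. Cebpb, which drives cytokine and acute phase genes, was 6.16, 6.07, 6.64, 6.53 and 6.29 in GFP-naive. In α9k1-naive it was between 8.28 and 9.13 (median 8.60). All 6 libraries were above the highest control, and the log2FC was 2.37 ± 0.16 (SE; adjusted p = 6.8e-08, limma). Cebpd, which is induced by the same cytokines, was 6.32, 6.37, 6.63, 6.69 and 6.47 in GFP-naive and between 7.30 and 7.80 (median 7.55) in α9k1-naive. These groups did not overlap either, with a log2FC of 1.23 ± 0.16 (SE; adjusted p = 6.0e-05, limma). Cebpg, a partner of other C/EBP proteins that lacks an activating domain of its own, was between 4.50 and 4.93 and between 4.71 and 5.17, so its groups overlapped. Its log2FC of 0.23 (95% CI -0.12 to 0.58) was not called.

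Crem was the only factor of the CREB subgroup that rose in this comparison. The gene makes activators and, from an internal promoter, the repressor ICER, and the values per gene do not separate them. Crem was 4.87, 5.89, 4.98, 4.72 and 5.39 in GFP-naive and between 6.04 and 6.88 (median 6.68) in α9k1-naive. The highest control stayed below the lowest α9k1-naive library, and the log2FC was 1.16 ± 0.26 (SE; adjusted p = 0.0050, limma). Creb1 was between 3.06 and 4.36 in GFP-naive and between 3.13 and 3.82 in α9k1-naive. Its log2FC was -0.45 (95% CI -1.003 to 0.095) and was not called. Atf1 was between 3.21 and 3.69 and between 3.45 and 4.23, with a log2FC of 0.15 (95% CI -0.24 to 0.53).

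Atf2 and Atf7, relatives that are activated by JNK and p38 kinases, moved in opposite directions. Atf2 was 4.91, 4.65, 4.85, 4.99 and 4.62 in GFP-naive and between 5.02 and 5.68 (median 5.53) in α9k1-naive, with no overlap. The log2FC was 0.53 ± 0.16 (SE; adjusted p = 0.026, limma), and it was not called in a fit of these 2 groups alone (0.32, adjusted p = 0.11; 0.32 to 0.94 over all 9 alternative fits, called in 8). Atf7 was 4.06, 4.12, 3.77, 4.17 and 3.53 in GFP-naive and 2.69, 2.65, 2.85, 2.51, 3.33 and 3.70 in α9k1-naive. The highest α9k1-naive library (3.70) lay above the lowest control (3.53), so the groups overlapped. The log2FC was -0.75 ± 0.27 (SE; adjusted p = 0.055, limma), and the call was lost without GFP-naive replicate 1, GFP-naive replicate 4 or GFP-crush replicate 3 (adjusted p up to 0.20) and in the fit of these 2 groups alone (-0.54, adjusted p = 0.25).

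The same question after injury was asked with α9k1-crush versus GFP-crush. Of the 9 factors, 2 rose (Atf3 and Cebpb) and none fell, where 0.728% of all genes were called higher and 0.182% lower. Values did not overlap for 4 of 9 factors (Atf2, Atf3, Cebpb and Crem), and for 40.8% of all genes. The covariates differ between these 2 groups, and their inclusion multiplies the variance of the difference from 0.50 to 3.11 times the variance within groups. Without covariates 6 factors were higher (Atf2, Atf3, Cebpb, Cebpd, Creb1 and Crem), where 29.6% of all genes were called higher.

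Atf3 was 6.46, 6.84, 6.33 and 6.46 in GFP-crush and 8.55, 9.02, 8.25 and 8.73 in α9k1-crush. Every α9k1-crush library was above every GFP-crush library, and the log2FC was 2.16 ± 0.36 (SE; adjusted p = 0.0089, limma). Cebpb was 5.36, 5.29, 5.44 and 5.49 in GFP-crush and 7.16, 7.43, 6.90 and 7.33 in α9k1-crush, again with no overlap. Its log2FC was 2.73 ± 0.35 (SE; adjusted p = 0.0011, limma), and the deposited means differed by 1.81. In a fit of these 2 groups alone neither was called (1.37, adjusted p = 0.86 for Atf3 and 2.35, adjusted p = 0.54 for Cebpb). That fit called 0 of all 12629 genes.

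Crem was 4.88, 5.34, 4.72 and 4.98 in GFP-crush and 6.41, 6.60, 6.38 and 6.70 in α9k1-crush. These values did not overlap and the means differed by 1.54 (p = 0.029, the smallest that a 2-sided exact permutation test of 4 against 4 libraries allows). With covariates the log2FC was 1.07 (95% CI -0.12 to 2.27; adjusted p = 0.60, limma), and without them 1.54 (adjusted p = 2.9e-05). Atf2 was 4.22, 4.24, 4.54 and 4.19 in GFP-crush and 5.25, 5.57, 5.28 and 5.13 in α9k1-crush. It too had no overlap and a mean difference of 1.01 (exact permutation p = 0.029), with a log2FC of 0.83 (95% CI 0.092 to 1.56; adjusted p = 0.49, limma). Cebpd was 5.11, 5.31, 5.75 and 5.65 in GFP-crush and 5.97, 6.33, 5.72 and 6.03 in α9k1-crush, and overlapped by a single library of each group. Its means differed by 0.56 and its log2FC was 1.30 with covariates (95% CI 0.56 to 2.03; adjusted p = 0.16, limma) and 0.56 without them (adjusted p = 0.0058). Creb1 was between 3.02 and 3.39 and between 3.35 and 4.11, with a log2FC of 0.28 (95% CI -0.92 to 1.47). Atf1, Cebpg and Atf7 had log2FC between -0.30 and 0.26, and all 3 overlapped.

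**Figure D2:**
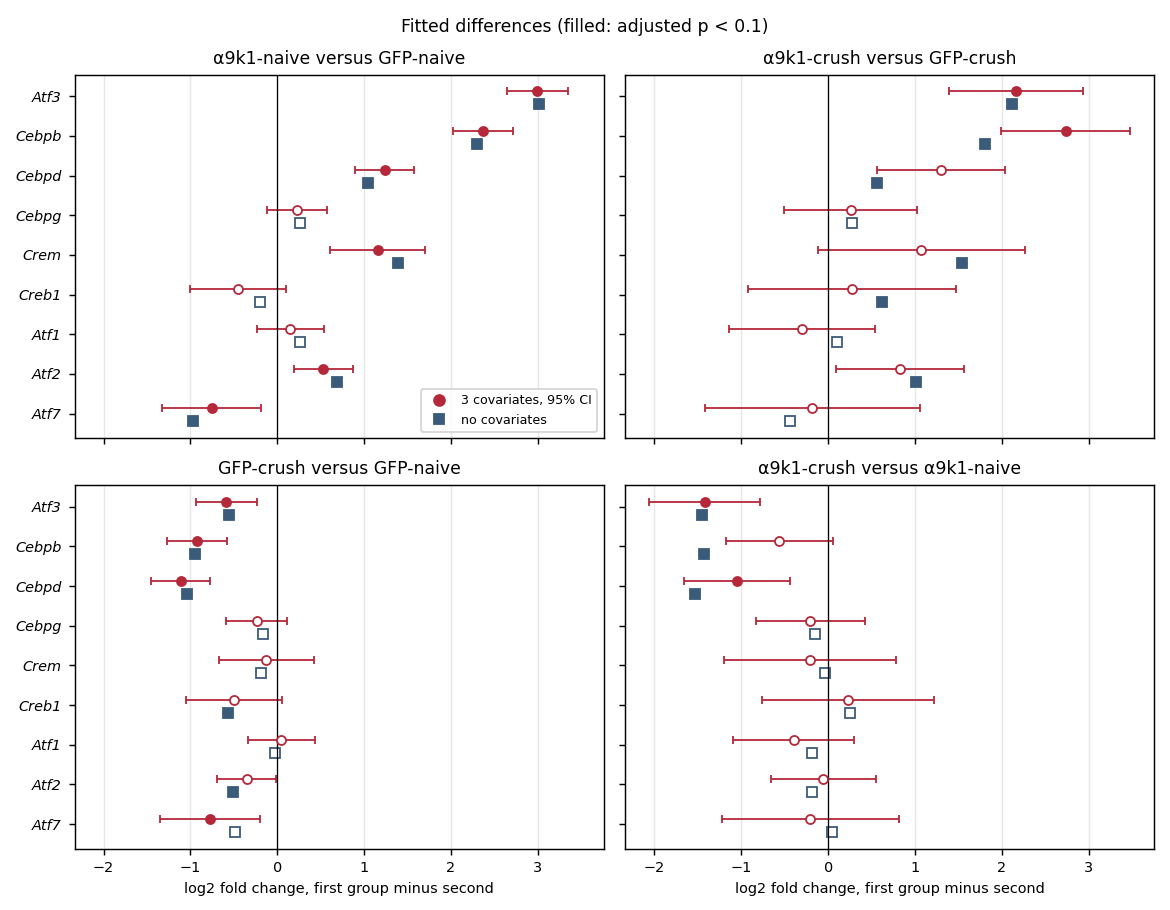
Fitted log2 fold change (horizontal axis) of each factor (rows) in 4 comparisons (panels), with covariates (circles, bars are 95% confidence intervals) and without (squares). Symbols are filled where the adjusted p is under 0.1. Intervals are wider in α9k1-crush versus GFP-crush, where Atf3 (2.16) and Cebpb (2.73) are filled, than in α9k1-naive versus GFP-naive.

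Crush alone was examined with GFP-crush versus GFP-naive. No factor rose and 4 of 9 fell (Atf3, Atf7, Cebpb and Cebpd), where 7.39% of all genes were called higher and 15.7% lower (933 and 1984 genes). With each library centred on its median these were 1826 and 1180, as the median log2FC of all genes went from -0.082 to 0.057, and the log2FC of Atf3, Cebpb and Cebpd remained negative and called. Values did not overlap for 4 of 9 factors (Atf2, Atf3, Cebpb and Cebpd), and for 19.8% of all genes. Without covariates 5 fell (Atf2, Atf3, Cebpb, Cebpd and Creb1), where 20.1% of all genes were called lower. Atf2 had a log2FC of -0.35 with covariates (95% CI -0.69 to -0.012; adjusted p = 0.15, limma) and -0.51 without them (adjusted p = 0.013), and Creb1 -0.50 (adjusted p = 0.205, limma) and -0.56 (adjusted p = 0.065). The values of these groups are those given above. Cebpd fell most, from a mean of 6.50 ± 0.16 (SD, n = 5) to 5.45 ± 0.30 (SD, n = 4), with a log2FC of -1.11 ± 0.16 (SE; adjusted p = 0.00055, limma). Cebpb went from 6.34 ± 0.24 to 5.39 ± 0.091 (SD), with a log2FC of -0.93 ± 0.16 (SE; adjusted p = 0.0023, limma). For Atf3 the log2FC was -0.59 ± 0.17 (SE; adjusted p = 0.031, limma), so that 8 weeks after a dorsal root crush the marker of axotomy was 1.50-fold lower than in uncrushed GFP controls. It was not called in a fit of these 2 groups alone (-0.46, adjusted p = 0.16). Atf7 overlapped between these groups, was called in 3 of 9 alternative fits and in 14 of 19 fits that leave out a library, and had a log2FC of -0.77 ± 0.27 (SE; adjusted p = 0.066, limma). It lost the call without α9k1-naive replicate 4, α9k1-naive replicate 6, GFP-crush replicate 4, GFP-naive replicate 2 or GFP-naive replicate 4 (adjusted p up to 0.18). Crem, whose values were between 4.72 and 5.89 in GFP-naive and between 4.72 and 5.34 in GFP-crush, had a log2FC of -0.12 (95% CI -0.68 to 0.43).

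Within the α9k1 animals, α9k1-crush was compared with α9k1-naive. Here 2 factors fell (Atf3 and Cebpd) and none rose, where 4.47% of all genes were called higher and 5.27% lower. Values did not overlap for 3 of 9 factors (Atf3, Cebpb and Cebpd), and for 33.4% of all genes. Atf3 had a log2FC of -1.42 ± 0.30 (SE; adjusted p = 0.013, limma). Even so, its 4 α9k1-crush values (8.25 to 9.02) all lay above GFP-naive (6.94 to 7.23). Cebpd had a log2FC of -1.05 ± 0.28 (SE; adjusted p = 0.044, limma), and its deposited α9k1-crush values (5.72 to 6.33) overlapped with the lower end of GFP-naive (6.32 to 6.69). The call of Cebpd was lost without α9k1-naive replicate 1 (adjusted p = 0.12), and in a fit of these 2 groups alone neither factor was called (-1.41, adjusted p = 0.23 for Atf3 and -1.11, adjusted p = 0.26 for Cebpd). Of all 12629 genes, the fit of these 2 groups called 64 higher and 138 lower.

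For Cebpb the deposited means of α9k1-crush and α9k1-naive differed by -1.43 (exact permutation p = 0.0095, the smallest the test allows). With the covariates its log2FC was -0.56 (95% CI -1.18 to 0.055; adjusted p = 0.28, limma) and without them -1.43 (adjusted p = 1.1e-06). Crem and Atf2 kept near levels in both α9k1 groups. Crem averaged 6.56 in α9k1-naive and 6.52 in α9k1-crush, a log2FC of -0.21 (95% CI -1.20 to 0.78). Atf2 averaged 5.49 and 5.30, a log2FC of -0.055 (95% CI -0.66 to 0.55).

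Across the 4 groups the deposited values of Atf3 and Cebpb were highest in α9k1-naive, then in α9k1-crush, GFP-naive and GFP-crush, and no neighbours in that order overlapped. The means of Crem and Atf2 had the same order, and for both the α9k1 groups overlapped with each other and not with any GFP group. For Cebpd the mean of GFP-naive lay above that of α9k1-crush, which overlapped with both of its neighbours, and with covariates α9k1-crush was instead 0.19 above GFP-naive. The difference between the α9k1 effect after crush and that without crush (the interaction) was tested in the same fit. None of the 9 factors was called by limma (unadjusted p under 0.05 for 1, Atf3), where 2.2% of all genes were (171 higher and 107 lower, and 118 and 167 with each library centred on its median). Atf3 had the lowest p, with an interaction of -0.84 (95% CI -1.56 to -0.11; adjusted p = 0.28, limma). Without covariates 3 factors were called, where 39.4% of all genes were: Atf3 (-0.89, adjusted p = 0.0017), Creb1 (0.82, adjusted p = 0.045) and Cebpd (-0.49, adjusted p = 0.076). The sign of Cebpd turned between the 2 fits (0.063 with covariates).

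The genes whose pattern was most like that of each induced factor were found by the root-mean-square difference (RMSD) over 19 libraries, after each gene was centred on its mean. The libraries fall into groups that the factors themselves separate, so these are descriptions of the pattern. For Atf3, which varied by 1.46 around its own mean, they were Zfp512b (RMSD 0.16), Irf1 (0.24), an interferon-response factor, and Socs3 (0.26), an inhibitor of JAK-STAT signalling. For Cebpb (1.25) they were Rnf122 (0.18), Phlda1 (0.21) and Bhlhe40 (0.23), a transcriptional repressor. For Cebpd (0.81) they were Ier2 (0.15), Zfp36l1 (0.16) and Jun (0.19), a bZIP partner of ATF proteins. The nearest genes to Crem (0.79) were less close, namely Sgk1 (0.29), Prkci (0.32) and Aldh18a1 (0.34). Among the factors themselves, Atf3 and Cebpb were nearest to each other (RMSD 0.37, with 18 genes nearer to Cebpb than Atf3).

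**Figure D3:**
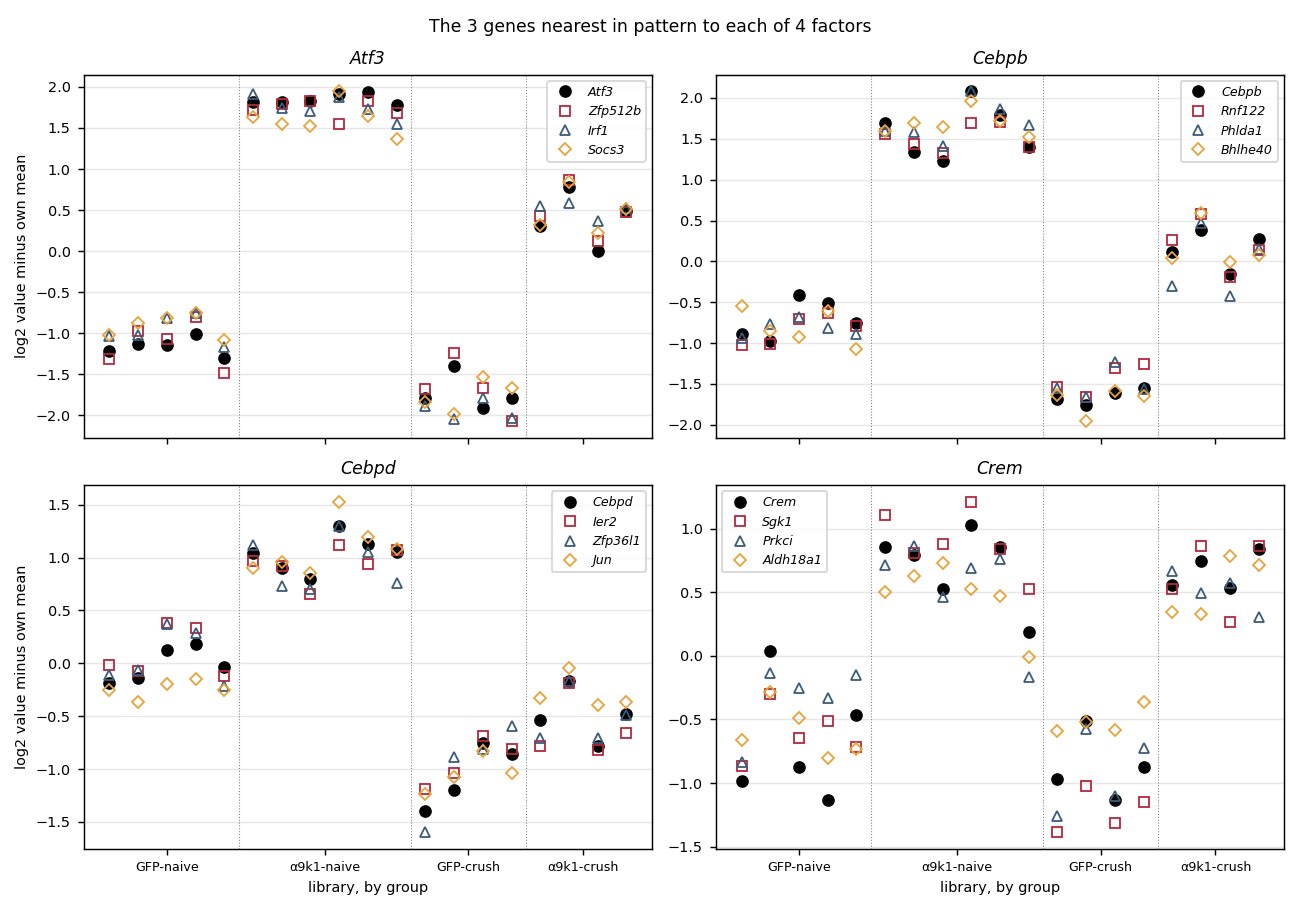
Log2 value minus the mean of the gene (vertical axis) in 19 libraries in order of group (horizontal axis) for 4 factors (black circles) and the 3 genes nearest to each (open symbols). Zfp512b, Irf1 and Socs3 overlie Atf3 with an RMSD of 0.16 to 0.26, while the symbols around Crem are more scattered (0.29 to 0.34).

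The factors were then set beside 7 lists of related genes, of which 146 genes had values. For α9k1 against GFP, 73 of the 146 were called without crush (50%, against 29.1% of all genes) and 19 after it (13%, against 0.911%), and in fits of the 2 groups compared alone 71 and 0. Of all 12629 genes, the first of these fits called 1193 higher and 1771 lower, and the second called 0. For crush against naive, 40 were called in GFP animals (27.4%, against 23.1% of all genes) and 27 in α9k1 animals (18.5%, against 9.74%), and in such fits 20 and 6. Of all genes, these fits called 262 higher and 662 lower in GFP animals, and 64 and 138 in α9k1 animals. Of 14 other bZIP factors of these families with values, 5 rose (35.7%, against 11.4% of all genes) and 1 fell in α9k1-naive versus GFP-naive (median log2FC 0.11, against -0.080 over all genes). Those that rose were Batf2 (1.77), Nfil3 (1.68), Atf4 (1.37), the translation-controlled factor of the integrated stress response, Jdp2 (1.31) and Ddit3 (0.93), its target. Crebzf fell (-0.53), a call that was lost without covariates (-0.13, adjusted p = 0.50, limma). Atf5, a relative of Atf4, was at 0.17 (adjusted p = 0.69, limma). With crush alone 4 fell (28.6%, against 15.7% of all genes), including Nfil3 (-1.37) and Atf4 (-0.72). Among α9k1 animals 2 were lower after crush (14.3%, against 5.27%), Atf4 (-1.53) and Ddit3 (-0.71). None of the 14 passed the test in α9k1-crush versus GFP-crush, where Atf4 was at 0.57 (adjusted p = 0.53, limma).

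Some of the genes known to be driven by CREB through CREs or by neuronal activity were higher in both α9k1 groups than in their GFP controls. In α9k1-naive versus GFP-naive, 18 of 31 with values rose (58.1%, against 11.4% of all genes) and 1 fell (median 1.18, against -0.080 over all genes). The largest rises were Pde4b (3.62), a phosphodiesterase that breaks down cAMP, and Arc (3.19), a synaptic immediate early gene. Nrn1, a neuritin that supports neurite growth, fell (-0.76). In α9k1-crush versus GFP-crush, 9 of 31 rose (29%, against 0.728% of all genes) and none fell (median 1.25, against 0.012), with Egr2 (2.76) and Btg2 (2.63, and 1.67 without covariates) at the top. None of the 31 was called there in a fit of these 2 groups alone, which called 0 of all 12629 genes. With crush alone none rose and 11 fell (35.5%, against 15.7%; median -0.68, against -0.082), led by Btg2 (-1.88) and Fosb (-1.77). Between the α9k1 groups 5 were lower after crush (16.1%, against 5.27%; median -0.55, against 0.0010), led by Pde4b (-2.09) and Adcyap1 (-2.03), the neuropeptide PACAP. Of the 41 promoter windows of 25 genes on this list, 6 held the full CRE (Btg2, Dio2, Dusp1, Pcsk1, Scg2 and Sst), against 1.79% of all windows, 1 the composite site and 0 the C/EBP palindrome. The short CRE site was in 26 of the 41, against 20.8% of all windows, and the AP-1 site in 1 (Bdnf), against 7.81%.

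The acute phase and cytokine genes that C/EBP factors are known to drive had the highest median of the 7 lists in both comparisons of α9k1 with GFP. In α9k1-naive versus GFP-naive, 14 of 15 with values rose (93.3%, against 11.4% of all genes; median 2.56). The list has 26 genes, of which 11 had no value. Some of the 15 were low in GFP-naive (means of 0.66 for Nos2, 0.74 for Ptgs2 and 1.08 for C3). These may have passed the low-count filter through groups where they are higher, so the share holds only for genes that passed. Il1b rose by 6.40 and Il6, the cytokine that acts through gp130 and STAT3, by 5.83, from a mean of 1.79 in GFP-naive to 7.50 in α9k1-naive. In α9k1-crush versus GFP-crush, 7 of 15 rose (46.7%, against 0.728% of all genes; median 2.06), with Il6 at 5.71 ± 0.43 (SE; adjusted p = 1.6e-05, limma) and Nos2 at 4.05. None of the 15 was called in a fit of these 2 groups alone, where 0 of all 12629 genes were. Crush alone was accompanied by 7 falls (46.7%, against 15.7%), led by Cxcl1 (-1.60) and Il6 (-1.44), and 3 rises (20%, against 7.39%), led by Il1rn (2.53) and Il1b (2.19), both known as products of macrophages. The mean of Il6 in GFP-crush was 0.43, near the floor of the values. Both its fall with crush and its α9k1 difference after crush are measured against that level. In α9k1-crush versus α9k1-naive, 4 fell (26.7%, against 5.27%) and none rose (median -0.61), with Ccl2 (-1.87) and Cxcl1 (-1.86) lowest. Of the 26 promoter windows of 19 genes on this list, 0 held the composite site, 1 the C/EBP palindrome (Ptgs2) and 0 the full CRE. The AP-1 site was in 6 (Il1rn, Il6, Mmp3, Sphk1 and Tnfaip6), against 7.81% of all windows. The short CRE site was in 5, against 20.8%.

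Of 36 CREB kinases, phosphatases and coactivators with values, 4 rose and 4 fell in α9k1-naive versus GFP-naive (11.1% each way, against 11.4% and 17.6% of all genes). Beside Pde4b, Sik2 rose (1.25), a kinase that keeps CREB coactivators out of the nucleus, but not without covariates (0.25, adjusted p = 0.54, limma). Rps6ka1 (-0.84) and Camk2g (-0.75), kinases that phosphorylate CREB, fell. Crebbp, the coactivator CBP, was at -0.65 (adjusted p = 0.11, limma), and Crtc1 had no value. After crush alone 6 were lower (16.7%, against 15.7% of all genes), led by Crtc3 (-0.94, and -0.51 with adjusted p = 0.12 without covariates, limma) and Pde4b (-0.81), and Prkaca, a catalytic subunit of protein kinase A, rose (0.49). After crush, Pde4b (2.35) was the single one of the 36 to rise in α9k1-crush versus GFP-crush. In α9k1-crush versus α9k1-naive, Rps6ka1 rose (0.91) and Pde4b fell.

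Of 21 stress pathway genes upstream of ATF2, ATF3 and ATF7 with values, which are kinases and the JIP scaffolds, 2 rose and 4 fell in α9k1-naive versus GFP-naive (9.52% and 19%, against 11.4% and 17.6% of all genes). Those that rose were Map3k8 (3.12), a kinase of cytokine signalling, and Map2k3 (0.78), and Mapk12 (-0.56), a kinase, and Mapk8ip1 (-0.48), a scaffold, fell most. Map3k8 also rose in α9k1-crush versus GFP-crush (2.05) and fell in α9k1-crush versus α9k1-naive (-1.13), where Mapk3 fell (-0.67, and -0.35 without covariates) and Mapk12 rose (0.98). Comparing GFP-crush with GFP-naive, Mapk14, the p38α kinase, fell (-0.61) and Mapk11 rose (0.53). Of 18 receptors and regulators of C/EBP factors, 8 rose and 4 fell in α9k1-naive versus GFP-naive (44.4% and 22.2%, against 11.4% and 17.6% of all genes). Trib1, a pseudokinase that marks C/EBPα for degradation, rose (2.34), and so did Osmr (1.87), the oncostatin M receptor, while Jak1 fell (-0.49, and -0.31 without covariates). Trib1 also rose in α9k1-crush versus GFP-crush (1.83), where it was the single gene of the 18 called. Crush alone went with 5 falls (27.8%, against 15.7% of all genes), led by Il6st (-0.77), the gp130 receptor subunit, and Myd88 (-0.70). From α9k1-naive to α9k1-crush 7 fell (38.9%, against 5.27% of all genes), led by Trib3 (-1.57, and -1.03 without covariates) and Osmr (-1.42), and 1 rose (5.56%, against 4.47%).

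Axotomy genes known to move with Atf3 did so in part. In α9k1-naive versus GFP-naive, 13 of 24 with values rose (54.2%, against 11.4% of all genes) and 2 fell (median 0.76), led by Socs3 (2.56) and Ankrd1 (2.36), with Jun at 1.44. Ngfr (-1.27) and Npy (-2.23) fell, and Npy was not called without covariates (-0.88, adjusted p = 0.32, limma) or in a fit of these 2 groups alone (-1.39, adjusted p = 0.34). Sprr1a, a small proline-rich protein of regenerating neurons, was at 0.92 (adjusted p = 0.35, limma). In α9k1-crush versus GFP-crush 2 rose (8.33%, against 0.728% of all genes), Socs3 (2.79) and Jun (1.31, and 0.76 without covariates), and the median was -0.13. Against GFP-naive, 2 rose in GFP-crush, Npy (3.96) and Tubb3 (0.55), and 3 fell, led by Socs3 (-0.84) and Jun (-0.76). These are 8.33% and 12.5% of the 24, against 7.39% and 15.7% of all genes. In α9k1-crush versus α9k1-naive 7 fell (29.2%, against 5.27% of all genes), led by Gal (-3.92, and -1.72 without covariates) and Ankrd1 (-3.50). Ankrd1 had a mean of 0.63 in α9k1-crush, near the floor of the values. Ngfr rose (1.44), which is 4.17% of the list, against 4.47% of all genes.

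**Figure D4:**
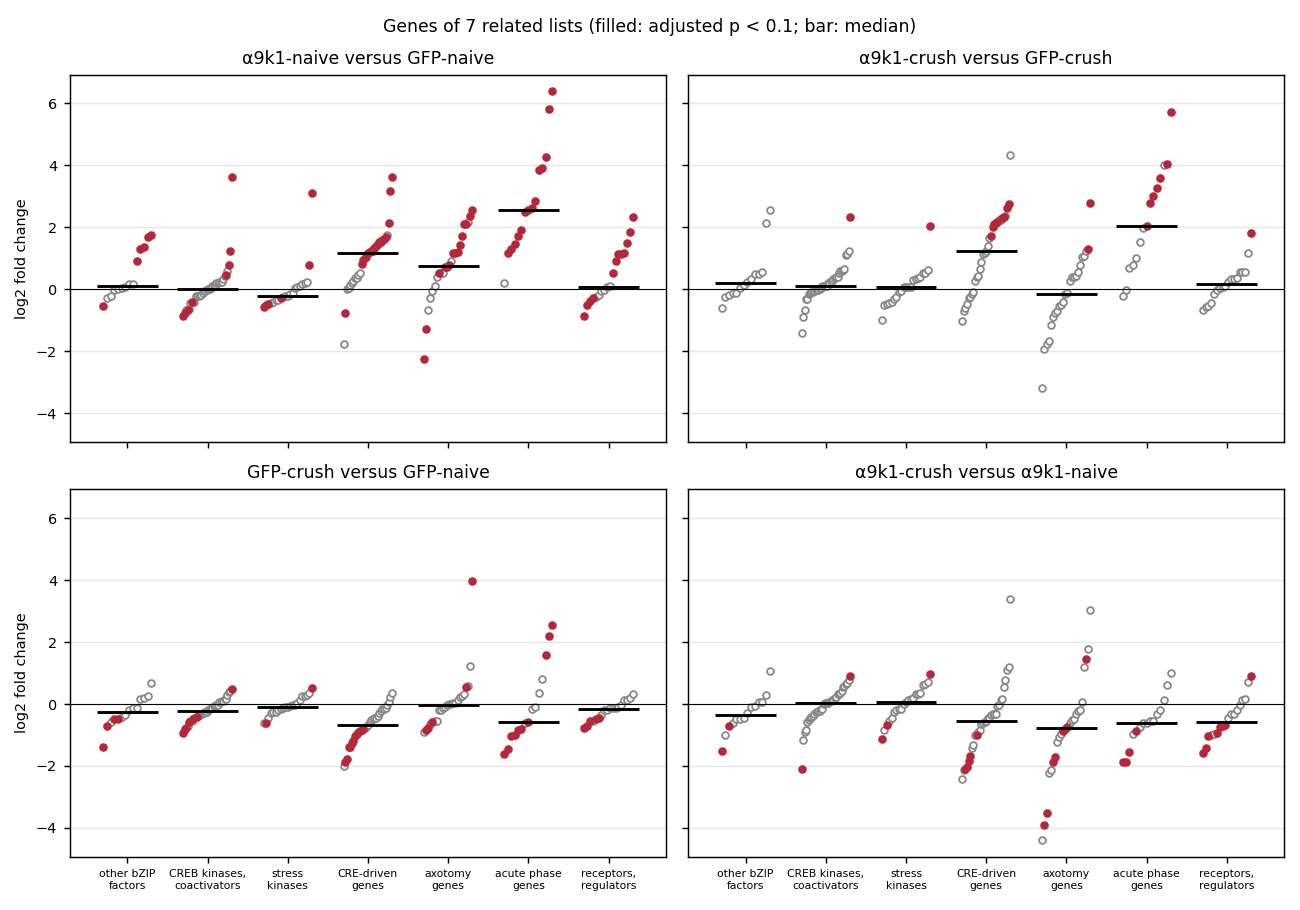
Log2 fold change (vertical axis) of each gene of 7 lists (horizontal axis) in 4 comparisons (panels), filled where the adjusted p is under 0.1, with the list median as a bar. The C/EBP-driven acute phase genes (median 2.56) and the CRE-driven genes (median 1.18) lie highest in α9k1-naive versus GFP-naive.

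Markers of other cells differed between the same groups. The summed level of the 11 macrophage markers (log2 of the sum) was lowest in GFP-naive (7.85 to 8.36), followed by α9k1-naive (9.11 to 9.70), and reached 9.53 to 10.1 and 9.25 to 10.1 in the GFP and the α9k1 crush group. Of the 11, 7 rose with α9k1 (63.6%, against 11.4% of all genes) and 8 with crush alone (72.7%, against 7.39%), each against GFP-naive. In α9k1-crush versus α9k1-naive 2 rose (18.2%, against 4.47%). These were Cd68 (1.84, with deposited means of 5.55 and 4.99) and C1qc (1.2, with means of 6.37 and 6.13). None passed the test in α9k1-crush versus GFP-crush. The 12 glial markers summed, in the same order of groups, to 13.6 to 13.9, 12.6 to 12.98, 13.7 to 14.2 and 12.8 to 13.7. Their members went both ways in α9k1-naive versus GFP-naive, where Fabp7 (0.54, with deposited means of 9.77 and 9.54) and Glul (0.54), markers of satellite glia, rose and 6 fell, among them Ncmap (-2.51), a gene of myelinating Schwann cells. These are 16.7% and 50% of the 12, against 11.4% and 17.6% of all genes. With crush alone 1 glial marker rose and 4 fell (8.33% and 33.3%, against 7.39% and 15.7% of all genes). From α9k1-naive to α9k1-crush 4 rose, among them Ncmap (3.32), and 3 fell, among them Fabp7 (-2.28). These are 33.3% and 25%, against 4.47% and 5.27% of all genes. The 7 endothelial and fibroblast markers summed to 9.35 to 9.69, 6.75 to 8.20, 8.20 to 8.69 and 7.52 to 8.14. All 7 fell in α9k1-naive versus GFP-naive (against 17.6% of all genes) and 4 fell with crush alone (57.1%, against 15.7%). From α9k1-naive to α9k1-crush 4 rose (57.1%, against 4.47%). Of these, Dcn (3.20) had deposited means of 5.42 and 5.90, and Flt1 (1.64) of 2.07 and 2.19. Col1a1 (1.25) had means of 5.28 and 6.16, and Col1a2 (1.08) of 5.16 and 6.02. The 11 neuronal markers summed to 13.3 to 13.6, 12.6 to 12.9, 13.9 to 14.4 and 13.9 to 14.4. With α9k1 alone 1 of them rose and 4 fell (9.09% and 36.4%, against 11.4% and 17.6% of all genes), led by the neurofilaments Nefm (-2.42) and Nefh (-2.32). With crush alone 7 rose (63.6%, against 7.39%) and none fell. From α9k1-naive to α9k1-crush, where Atf3 and Cebpd fell, 4 neuronal markers rose (36.4%, against 4.47% of all genes), led by Nefh (2.79), and none fell. In such bulk libraries fewer cells of a type and less RNA per cell cannot be told apart, and the part of these shifts in the results on the factors was not tested.

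On GRCm38, Atf3 (ENSMUSG00000026628) spans chr1:191170296-191218039, Cebpb (ENSMUSG00000056501) chr2:167688915-167690418, Cebpd (ENSMUSG00000071637) chr16:15887286-15891031 and Atf2 (ENSMUSG00000027104) chr2:73816509-73892639. Exons of 6 of the 9 factors share bases with another annotated gene. The reads do not mark strand, so reads there cannot be told apart. For Cebpb, 20.7% of exon bases are shared with Tmem189 on the opposite strand, whose log2FC between α9k1 and GFP animals was -0.27 without crush and 0.57 after it. From α9k1-naive to α9k1-crush Tmem189 rose by 1.03 (adjusted p = 0.0078, limma), where Cebpb was at -0.56. For Cebpd, 15% are shared with Spidr, which was at -0.025 without crush and -0.33 after it between α9k1 and GFP animals. For Atf7, 11.7% are shared with Gm28047, and for Crem 8.01% with Gm6225, neither of which has a value. Atf3, Atf1 and Creb1 share none, and Atf2 and Cebpg share 2.04% and 1.37%.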

How the data were processed

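The authors aligned reads to mm10 (GRCm38) with STAR, counted them with Salmon, removed genes with few counts, added a small pseudocount and corrected for the length of genes and for depth with cqn, and the deposited values are log2. Versions are not given in the sources used here. The deposited library metrics of the authors, from Picard, are counts, fractions, percentages of dropout and ratios of coverage. The authors' deposited gene table has gene names in the same order as the values, together with their fold changes, p-values and FDR, which were not used. The order was checked with Fermt1, which ranked 3 and 1 of 12629 genes by the α9k1 difference without and after crush.

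One limma fit (limma 3.58.1, R 4.3.3) took 19 libraries, 4 group means and the first 3 principal components of 48 scaled metrics (45.9%, 24.1% and 11.5% of their variance), with Benjamini-Hochberg adjustment over all genes. The model of the study also has batch, which the labels do not give and which was left out, so batch and group cannot be told apart. The third component varied mostly between groups (74.5% of its variance). For single values, differences in means were tested by exact permutation, 2-sided (scipy 1.17.1). Counting error cannot be given from normalized values. All factors are named. From each gene list, the called genes with the 2 largest rises and the 2 largest falls in each comparison are named, together with Atf4, Atf5, Jun, Crtc1, Crebbp, Il6 and Sprr1a, and others with few calls are named after their values were seen. The factors and the lists were chosen with earlier results of these data known. Promoters are from RefSeq (GRCm38.p6), genes from GENCODE on GRCm38, which matched 9 of 9 factors. The fit was tested on simulated data. Alternatives were fits with no covariates, 2 components, the groups compared alone, without the 25% of genes lowest in mean value, quantile normalization, median centring, array weights, a replicate block and each library left out.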

Additional observations from a re-analysis of the deposited data

Results flagged for a closer look

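Among 36 sets of values (9 factors in 4 groups), 2 held a library far from the others by Dixon's criterion, which flags about 1 in 20 sets by chance. Atf2 was at 5.02 in α9k1-naive replicate 6, where the next library was at 5.49 and the highest at 5.68. Atf2 was also at 4.54 in GFP-crush replicate 3, where the next was at 4.24 and the lowest at 4.19.

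Of the 146 list genes beside the factors, 5 (3.42%, against 2.2% of all genes) had an α9k1 effect that differed after crush from that without crush, in a test of the difference itself (limma, adjusted p under 0.1). Gal, a neuropeptide induced by axotomy, had a difference of -3.88 ± 0.82 (SE; adjusted p = 0.038), Stmn4, a stathmin, -1.95 ± 0.44 (SE; adjusted p = 0.048), and Adcyap1 -2.38 ± 0.64 (SE; adjusted p = 0.099), so their α9k1 effect was lower after crush. Ngfr, the p75 neurotrophin receptor, had 1.55 ± 0.42 (SE; adjusted p = 0.0996). Hspb1, named after its values were seen, had -1.05 ± 0.25 (SE; adjusted p = 0.067). None of these calls was kept without GFP-crush replicate 2, where 0 list genes were called. Without covariates the differences of Gal and Stmn4 were -2.08 (adjusted p = 0.014) and -0.94 (adjusted p = 0.029), and Adcyap1 and Ngfr were at -1.75 and 1.98.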

How the results depend on the processing

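In α9k1-naive versus GFP-naive, 6 factors were called, 4 in a fit of these groups alone and 5 to 7 with a library left out. Atf3, Cebpb, Cebpd and Crem were called under all 9 alternatives and with each of 19 libraries left out. Of all genes, 1445 were higher and 2224 lower, and 1193 and 1771 in the fit of these groups alone. Counts in the other comparisons moved as well. In α9k1-crush versus GFP-crush, 2 factors were called with covariates, 6 with no covariates, 4 with 2 components, 0 in a fit of these groups alone and 2 to 3 with a library left out. Of all 12629 genes, 92 were higher and 23 lower with covariates, 3743 and 3580 with no covariates, and 659 and 585 with 2 components. The fit of these groups alone called 0. In GFP-crush versus GFP-naive, 4 were called, 2 in a fit of these groups alone and 3 to 5 with a library left out. Of all genes, 933 were higher and 1984 lower, and 262 and 662 in the fit of these groups alone. In α9k1-crush versus α9k1-naive, 2 were called, 0 in a fit of these groups alone and 1 to 2 with a library left out, the 1 being without α9k1-naive replicate 1. Of all genes, 565 were higher and 665 lower, and 64 and 138 in the fit of these groups alone. For the interaction, 0 were called, 3 with no covariates, 2 with 2 components and 0 with any library left out. Of all genes, 171 were higher and 107 lower, 2943 and 2027 with no covariates, and 2048 and 1318 with 2 components. Cebpd turned sign in the interaction with no covariates (0.063 to -0.49).

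Genes of the 7 lists were called in numbers of 73, 19, 40, 27 and 5 in the 4 comparisons and the interaction. With no covariates these were 87, 102, 51, 97 and 75, with 2 components 73, 42, 39, 101 and 53, and in fits of the groups compared alone 71, 0, 20 and 6. Array weights gave 11 for the interaction. With a library left out they were 64 to 77, 12 to 22, 25 to 45, 9 to 37 and 0 to 9. Leaving out α9k1-naive replicate 4 gave the 12 and the 9, GFP-naive replicate 1 also gave 12, and α9k1-naive replicate 1 gave 13 where the count was 27. The 25 came from the fit that lacks GFP-naive replicate 2. The interaction count of 5 moved by more than 1.5 times with any of 12 libraries removed, to 0 without GFP-crush replicate 2 and to 9 without α9k1-crush replicate 2. All genes called higher and lower in α9k1-crush versus GFP-crush were 92 and 23, and 3743 and 3580 with no covariates, and in α9k1-crush versus α9k1-naive 565 and 665, and 3593 and 3424 with no covariates. Of the 146 list genes, 29 took the opposite sign in α9k1-crush versus GFP-crush with no covariates, of which 14 were called there and 0 with covariates. Among these 14 were Crebzf (0.52), Crtc3 (-0.61), Il1rn (1.52) and Sik2 (-1.22). Il6st was at 0.43 in α9k1-crush versus α9k1-naive with 2 components, opposite to the value with 3. The cause of these changes was not tested.

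The replicate numbers do not pair the libraries. Deviations of same-numbered libraries of different groups had correlations of -0.27 to 0.15 (median 0.020) over 25 pairs, and 3 of 19 libraries correlated best with their own number. With a replicate block beside the covariates, 0 factors were called in α9k1-crush versus α9k1-naive, where 155 of all 12629 genes were higher and 176 lower. With the block and no covariates, 6 were called in α9k1-crush versus GFP-crush, 4 in α9k1-crush versus α9k1-naive and 3 for the interaction. With that block and no covariates, Il6st was at 0.52 in α9k1-naive versus GFP-naive, and Crebzf, Crtc3, Il1rn and Sik2 were at 0.52, -0.61, 1.52 and -1.22 in α9k1-crush versus GFP-crush. The block left 8 list genes called in α9k1-crush versus α9k1-naive and 0 for the interaction with the covariates.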
